A study of Mus musculus with 6 samples.

Results

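The 33 genes described here encode the enzymes that burn fatty acids, the acyl-CoA synthetases and carnitine carriers that feed them, and the peroxisome proliferator-activated receptors (PPARs) with a coactivator. They were chosen by name for their role, and all 33 were found among the 26789 genes of the deposited table by Ensembl identifier. The libraries came from microglia, brain-resident macrophages, of the rostral nucleus of the solitary tract (NST), the first brainstem relay for taste, in mice at postnatal day P15. Control mice came from dams on standard chow. E3–E12 diet mice, named Low Sodium Diet in the labels, came from dams given a sodium-restricted diet and distilled water between embryonic days E3 and E12, after which standard chow and tap water were given. Neither group carried a transgene or another treatment that the sources mention for these samples. The same methods describe control mice of other experiments as C57Bl/6, and the strain of the sequenced litters is not given separately. Each library pooled the NSTs of 6 littermates, males and females both being used, and there were 3 litters per group, so n = 3 libraries each throughout. The study sorted the cells with CD11b magnetic beads, whereas the labels name laser microdissection, so the isolation of the cells is uncertain.

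Fatty acid oxidation begins outside the mitochondrion, where acyl-CoA synthetases couple a fatty acid to coenzyme A. The carnitine shuttle then carries long acyl chains across the inner mitochondrial membrane, and a repeated cycle of dehydrogenation, hydration, a further oxidation and thiolysis shortens the chain and passes electrons to the respiratory chain. Peroxisomes run a related cycle on very long and branched chains. PPARs are nuclear receptors that bind fatty acids and, paired with retinoid X receptors, switch on many of these genes. In myeloid cells oxidation of fatty acids is commonly set against glycolysis as a fuel choice, and the comparison of diets below asks whether the transcripts of this pathway differed in the microglia of E3–E12 diet mice.

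The normalized counts, which are read counts per gene scaled between libraries by the authors, summed to between 9407141 and 17204618 per library, and the reads behind each value are not known. The deposited table is labelled sva, the name of a package that estimates hidden variables, and at most 2.09% of the values of a library were whole multiples of its smallest value (tolerance 0.01). Whether the values were also adjusted gene by gene is not given in the sources used here, so levels, spreads and ratios below are those of the table as deposited, which may not be reads scaled by a single factor per library. Control replicate 2 stood apart, with 10640 genes listed at 0 against 3459 to 7135 in the other 5 libraries. A list of 14 microglial markers was present in every library, from Csf1r and Cx3cr1 to Aif1, with 0 of them listed at 0. The summed level of the list ran from 115516 to 565569 normalized counts in the controls and from 113250 to 372925 in E3–E12 diet mice, and 0 of the 14 had a higher mean log2 level in E3–E12 diet mice. Markers of other cells were also present and uneven. Summed levels in controls and E3–E12 diet mice, in turn, ran from 2270 to 9436 and from 5021 to 10693 for astrocytes (10 markers, 8 with the higher mean log2 level in E3–E12 diet mice), from 5639 to 14640 and from 9556 to 15060 for endothelial cells (10 markers, 6 higher), and from 780 to 30470 and from 1262 to 58731 for choroid plexus (8 markers, 2 higher). They ran from 754 to 1660 and from 843 to 1943 for neurons (9 markers, 6 higher), from 5099 to 43533 and from 5937 to 24161 for oligodendrocytes (8 markers, 3 higher), from 1716 to 15750 and from 6179 to 17224 for mural cells and fibroblasts (8 markers, 5 higher), and from 488 to 2869 and from 477 to 599 for erythroid cells and neutrophils (6 markers, 0 higher). Control replicate 2 held the highest microglial sum (565569) and the lowest sums for astrocytes, endothelial cells, choroid plexus, neurons, and mural cells and fibroblasts. It also held the highest sum for erythroid cells and neutrophils (2869), and its oligodendrocyte sum (17134) was not the lowest. The defining markers Gfap and Folr1 were listed at 0 in control replicate 2, and Mag was listed at 0 in 4 libraries. The study's lists of changed genes, drawn from these samples, hold the markers Aldoc (astrocytes), Vwf, Flt1 and Ly6c1 (endothelial cells) and Ttr (choroid plexus). The directions of these markers are therefore not independent of the study's results. In a bulk library, fewer cells of a type and less RNA per cell cannot be told apart.

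No transcript of the pathway passed the test between diets. Testing required a mean normalized count of 10 or more, which 32 of the 33 members reached. Of these, 17 had the higher mean log2 level with the E3–E12 diet and 15 with the control diet, beside 54.4% higher among all 18007 genes tested. Their median log2 fold change, E3–E12 diet minus control on the log2(normalized count + 1) scale, was 0.013, beside 0.087 over all genes. No member passed the adjusted threshold of 0.1 (0 of 32 members, 0% of all genes, smallest adjusted p of a member 0.999 from limma with Benjamini-Hochberg adjustment), and 0 members had an unadjusted p under 0.05, beside 1.82% of all genes. The study, using DESeq2 on its reads at the same threshold, listed both higher and lower genes from these samples. It described what seemed a loss of lipid metabolism, fatty acid metabolism included. The lower genes it annotated for fatty acid metabolism were Elovl6, Tecr and Fasn, with Lonp2 annotated for fatty acid oxidation. None of the 33 members is in its list of higher or of lower genes. The 0% of all genes here is that of limma on the deposited values, which did not recover the genes the study listed. The 3 libraries of each diet did not overlap for 2 members, Eci1 and Ehhadh, beside 5.9% of all genes. The median standard error of a member's log2 fold change was 0.75, and 25 of the 32 members had a 95% interval that lay within 3 log2 units of 0 on either side. For the other 7 members even an 8-fold change lay within the interval in at least one direction.

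**Figure D1:**
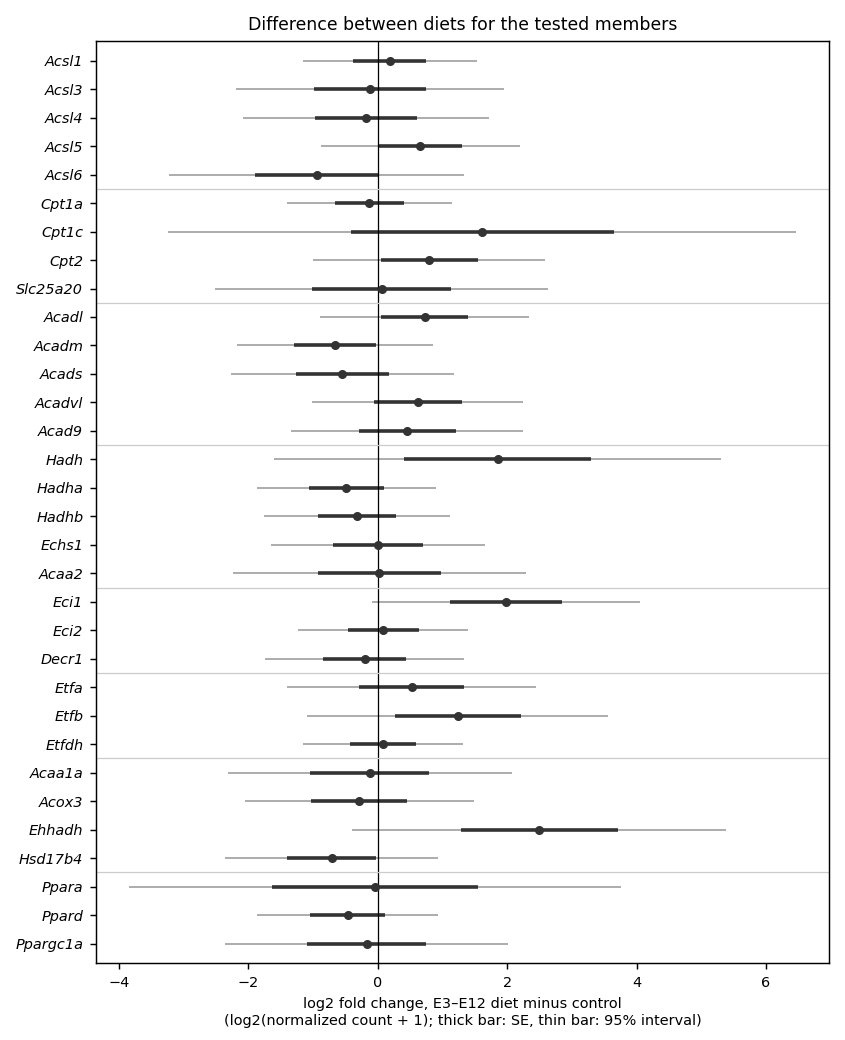
Log2 fold change (x axis, E3–E12 diet minus control, on the log2(normalized count + 1) scale) of the 32 tested members, grouped by role from the acyl-CoA synthetases at the top to the PPARs at the bottom. Dots are the limma estimate, thick bars its standard error and thin bars its 95% interval; every interval crosses 0, and Eci1 and Ehhadh sit farthest to the right at 1.98 and 2.50.

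Among the regulators, Ppard carried nearly all of the PPAR signal. Ppard (chr17:28232700-28301474, plus strand, GRCm38), the broadly expressed receptor of the family, had 1278, 1364 and 1577 normalized counts in control replicates 1 to 3 against 651, 1068 and 1492 in replicates 1 to 3 of the E3–E12 diet. E3–E12 diet replicate 1 was the lowest, and the remaining libraries of the 2 groups overlapped (1406 ± 154 against 1071 ± 420.4 SD, control first, log2 fold change -0.47, standard error 0.58, or -0.15 without E3–E12 diet replicate 1). Ppara, the receptor that drives oxidation in liver and heart, had 8.13, 0 and 26.0 normalized counts in controls, against 21.1, 9.34 and 0 with the E3–E12 diet, so it was listed at 0 in 1 library of each group. Its log2 fold change of -0.037 had a standard error of 1.59 and turned positive (0.0085) when the libraries were scaled to equal totals. Pparg, the receptor of adipocytes and of alternatively activated macrophages, had 4.21, 0 and 0 in controls, against 1.25, 4.07 and 2.09 with the E3–E12 diet, was below the minimum level for testing, and was listed at 0 in 2 controls. Per kilobase of exon, the median normalized count of Ppard over the 6 libraries was 176, against 2.28 for Ppara and 0.57 for Pparg, and the lowest Ppard library (86.7) lay above the highest Ppara library (6.79).

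Ppargc1a, which encodes the coactivator PGC-1 alpha, a promoter of mitochondrial biogenesis, had 331, 80.8 and 143 normalized counts in controls, against 409, 73.8 and 88.2 with the E3–E12 diet. Replicate 1 was the highest of each group, and the groups overlapped across their whole ranges (log2 fold change -0.17, standard error 0.91). Those 2 libraries also held the least microglial signal, with 115516 and 113250 normalized counts over the 14 markers. The part that cell composition played in the level of Ppargc1a was not tested.

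PPARs bind DNA as a repeat of the hexamer AGGTCA with 1 base between the copies. RefSeq promoter windows, from 250 bases before to 50 bases after a transcription start (GRCm38.p6), were matched for 29 of the 33 members in 34 windows, leaving out Acad9, Acaa2, Decr1 and Hsd17b4. None of the 34 windows held the repeat on either strand, with no mismatch or with at most 1 mismatch over its 12 fixed letters, beside 0.040% and 0.55% of all 32851 windows. At such rates 34 windows were too few for its absence to say anything about the members. Sites farther from the start were not searched. The single hexamer AGGTCA, read on both strands, was present in 8 of the 34 windows (23.5%, beside 16.3% of all windows), which belong to Acsl6, Cpt1a, Cpt1c, Acadm, Acadvl, Echs1 and Pparg. The stretches below show it in the promoters of a carnitine transferase, a dehydrogenase and a hydratase, which act at different steps of the pathway. They are written 5′ to 3′ on the strand of the gene, with the hexamer or its reverse complement in capitals.
Cpt1a, chr19:3323187-3323232, plus strand: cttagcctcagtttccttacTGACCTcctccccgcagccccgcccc
Acadvl, chr11:70015490-70015535, minus strand: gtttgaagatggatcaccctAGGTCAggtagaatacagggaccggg
Echs1, chr7:140116479-140116524, minus strand: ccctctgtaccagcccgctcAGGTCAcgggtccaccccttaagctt
A match of these letters describes the sequence and does not show binding.

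The acyl-CoA synthetases Acsl1, Acsl3, Acsl4, Acsl5 and Acsl6 were all tested, and none passed the test between diets (2 higher and 3 lower in mean log2 level in E3–E12 diet mice). Acsl1 (chr8:46471037-46536051, plus strand), the main synthetase of oxidative tissues, had 751, 877 and 832 normalized counts in controls, against 1093, 1194 and 619 with the E3–E12 diet. The E3–E12 diet libraries lay on both sides of all 3 controls (log2 fold change 0.19, standard error 0.56). Acsl5, whose product lies on the outer mitochondrial membrane and the endoplasmic reticulum, had 313, 171 and 525 against 459, 392 and 615 (log2 fold change 0.66, standard error 0.65). The groups overlapped because control replicate 3 exceeded E3–E12 diet replicates 1 and 2. Acsl6, a synthetase enriched in brain that handles long polyunsaturated chains, had 563, 463 and 105 in controls, against 351, 169 and 64.4 with the E3–E12 diet (log2 fold change -0.94, standard error 0.95). Acsl6 was the member with the lowest log2 fold change, and it spread 8.74-fold over the 6 libraries. With a library left out its log2 fold change ran from -1.70 (without control replicate 3) to -0.31 (without E3–E12 diet replicate 3), and that of Acsl5 from 0.25 (without control replicate 2) to 1.05.

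The make-up of the synthetase family varied widely between libraries, and the shares of all 5 genes overlapped between diets. As a share of the summed Acsl level per kilobase of exon, which a single scaling factor per library would leave as it is but an adjustment gene by gene would not, Acsl4, a synthetase that prefers arachidonic acid, took 14.8%, 24.6% and 40.1% in control replicates 1 to 3 against 9.01%, 28.0% and 34.9% in replicates 1 to 3 of the E3–E12 diet. Acsl3, a synthetase of lipid droplet formation, had the opposite order of replicates in controls, at 35.2%, 19.1% and 7.82%, and took 21.4%, 23.7% and 7.09% in E3–E12 diet mice. Replicate 3 of each diet was thus high in Acsl4 and low in both Acsl3 and Acsl6. The share of Acsl1 was the steadiest, between 17.8% and 31.0%. Acsl3 shares 4.05% of the 50-base windows of its transcript with Utp14b, which overlaps it. The oligodendrocyte markers were at 5099 and 5937 normalized counts in replicate 3 of the controls and of E3–E12 diet mice and between 16987 and 43533 in the other 4 libraries. Their part in the level of Acsl3 and Acsl6 was not tested.

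**Figure D2:**
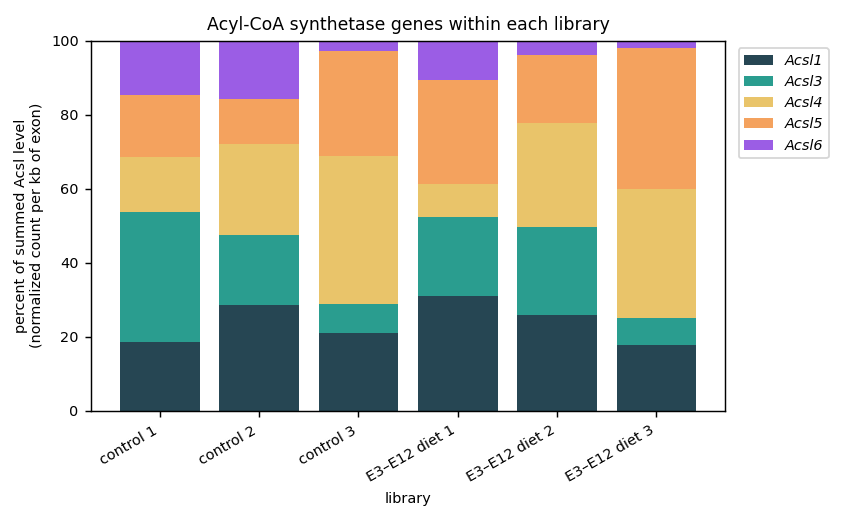
Share of each acyl-CoA synthetase gene (y axis, percent of the summed normalized count per kilobase of exon) within each of the 6 libraries (x axis); each bar adds up to the whole family. Replicate 3 of each diet shows the widest Acsl4 segments, at 40.1% and 34.9%, and the narrowest Acsl3 segments, at 7.82% and 7.09%.

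In the carnitine shuttle, Cpt1a was among the steadiest members and Cpt1c was barely present. Cpt1a (chr19:3322334-3385733, plus strand), which encodes the carnitine palmitoyltransferase at the outer membrane that sets the rate of mitochondrial oxidation, had 839, 627 and 695 normalized counts in controls, against 657, 777 and 545 with the E3–E12 diet. Its means of 720.4 ± 108 and 660.0 ± 116 (SD) differed by less than either SD (log2 fold change -0.13, standard error 0.53, 95% interval -1.41 to 1.15). Cpt1c, a neuronal member of the family with little transferase activity, had 30.9, 0 and 0 in controls, against 0, 95.4 and 8.51 with the E3–E12 diet. Cpt1c was thus listed at 0 in 3 of 6 libraries, and its log2 fold change of 1.61 (standard error 2.03) was -0.041 without E3–E12 diet replicate 2.

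Cpt2 (chr4:107903981-107923610, minus strand), the transferase of the inner membrane that hands the chain back to coenzyme A, had 118, 34.7 and 133 normalized counts in controls, against 88.1, 170.01 and 196 with the E3–E12 diet. Control replicate 2 was the lowest, and the log2 fold change of 0.80 (standard error 0.75) was 0.19 without it. The ratio of Cpt1a to Cpt2 within a library was 7.09, 18.1 and 5.22 in controls, against 7.46, 4.57 and 2.78 with the E3–E12 diet, and the groups overlapped. Slc25a20, the carnitine and acylcarnitine carrier between the 2 transferases, ranged from 11.2 to 147 normalized counts with the extremes in E3–E12 diet replicates 2 and 1, and AC136710.2 is the annotated gene that shares most of the 9.96% of its windows found elsewhere.

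**Figure D3:**
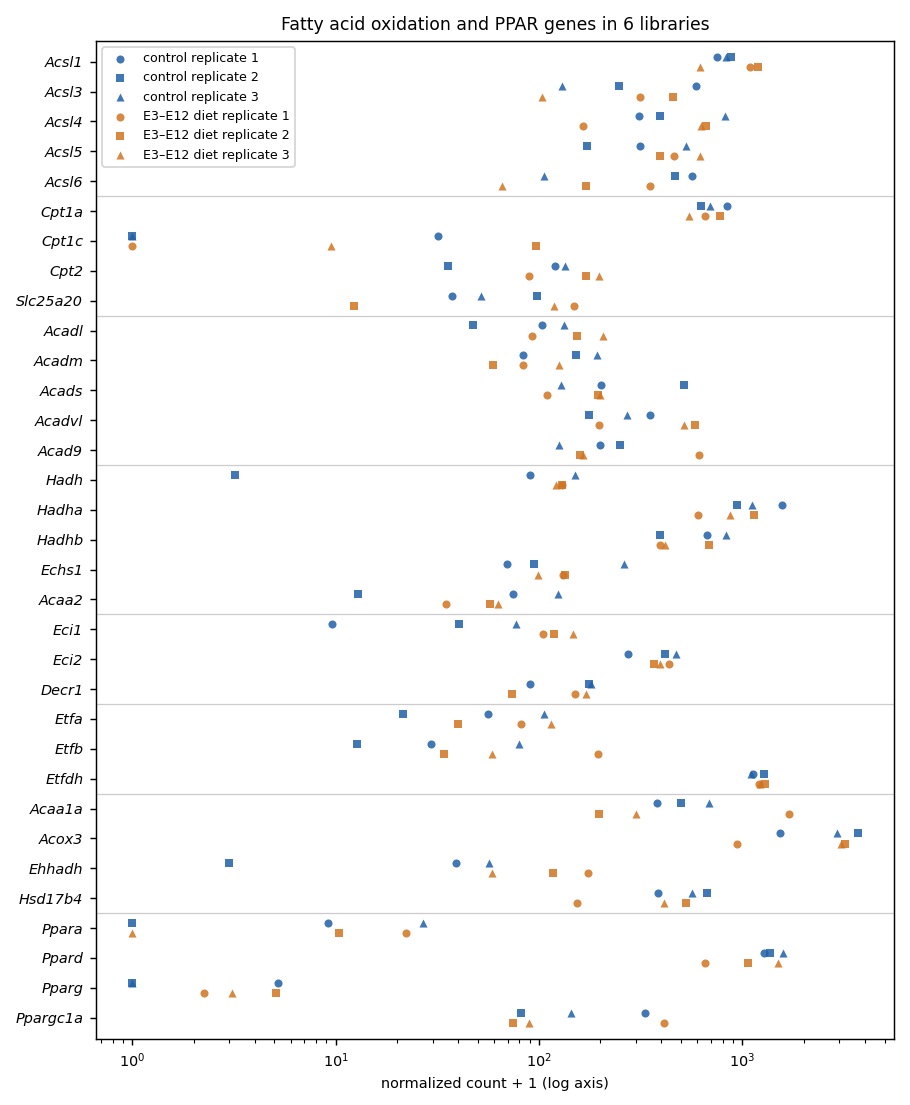
Normalized count + 1 (x axis, log scale) of all 33 members in the 6 libraries, grouped by role along the y axis; blue marks are controls, orange marks E3–E12 diet mice, and the shape gives the replicate. Etfdh and Cpt1a show the tightest clusters of marks, Eci1 and Ehhadh show all orange marks to the right of all blue ones, and marks at 1 on the axis are libraries listed at 0.

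The acyl-CoA dehydrogenases catalyse the first step of the cycle, each on chains of a given length. Of the 5 genes, 3 (Acadl, Acadvl and Acad9) had the higher mean log2 level in E3–E12 diet mice and 2 (Acadm and Acads) in controls, and every 95% interval held 0. Acadl, the long-chain enzyme, had 102, 46.2 and 131 normalized counts in controls, against 91.1, 152 and 205 with the E3–E12 diet (log2 fold change 0.72, standard error 0.67, or 0.29 without control replicate 2). Acadm, the medium-chain enzyme, had 82.6, 150.3 and 191 in controls, against 82.0, 58.2 and 125 with the E3–E12 diet. E3–E12 diet replicates 1 and 2 lay below all controls and replicate 3 between them (log2 fold change -0.66, standard error 0.63).
Acadvl (chr11:70010183-70015411, minus strand), the very-long-chain enzyme bound to the inner membrane, had 350.3, 175 and 269 in controls, against 197, 586 and 514 with the E3–E12 diet (log2 fold change 0.62, standard error 0.68, or 0.32 without E3–E12 diet replicate 2). 42.9% of its exon sequence overlaps Dvl2 on the opposite strand, and whether reads were counted by strand is not given in the sources used here, so its level is uncertain. Acads, the short-chain enzyme, spread from 108 to 512 normalized counts with its highest value in control replicate 2, and its log2 fold change of -0.55 was 0.0077 without that library. Acad9, an assembly factor of respiratory complex I as well as a dehydrogenase, spread from 124 to 612, with its highest value in E3–E12 diet replicate 1, and 12.9% of its windows are shared with an overlapping annotated gene.

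Hadha and Hadhb, which encode the alpha and beta subunits of the mitochondrial trifunctional protein, lie head to head on chromosome 5. Hadha (chr5:30118304-30155162, minus strand) had 1564, 939 and 1116 normalized counts in controls, against 601, 1137 and 872 with the E3–E12 diet. E3–E12 diet replicate 1 and control replicate 1 marked the extremes, and the groups overlapped (1206 ± 322 against 870.3 ± 268 SD, control first, log2 fold change -0.49, standard error 0.58, or -0.24 without E3–E12 diet replicate 1). Hadhb (chr5:30155248-30184593, plus strand) ranged from 392 to 832 normalized counts, with a log2 fold change of -0.32 (standard error 0.60.) The ratio of Hadha to Hadhb within a library was 2.34, 2.40 and 1.34 in controls, against 1.53, 1.67 and 2.09 with the E3–E12 diet. Its mean log2 value was 0.97 ± 0.47 in controls and 0.81 ± 0.23 in E3–E12 diet mice (SD), a difference smaller than either SD. The 85 bases between the annotated ends of the 2 genes are shown because both are transcribed away from them. They are 69.4% G and C and hold 2 copies of the GC box GGGCGG, printed in capitals and searched on both strands, which occurs in 35.7% of all 32851 RefSeq promoter windows and in 27 of the 34 windows of the members (79.4%).
Hadha and Hadhb, chr5:30155163-30155247, plus strand: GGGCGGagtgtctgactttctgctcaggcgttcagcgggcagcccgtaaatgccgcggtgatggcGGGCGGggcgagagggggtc

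The remaining enzymes of the mitochondrial cycle were less abundant. Hadh (chr3:131233419-131272101, minus strand), the hydroxyacyl-CoA dehydrogenase of short and medium chains, had 89.0, 2.20 and 150 normalized counts in controls, against 129, 129 and 121 with the E3–E12 diet. The E3–E12 diet libraries agreed closely (126 ± 4.79 SD), whereas control replicate 2 was 67.9 times below the highest library. The log2 fold change of 1.86 (standard error 1.45) was 0.13 without control replicate 2. Echs1, the enoyl-CoA hydratase, ranged from 68.9 to 261 with a log2 fold change of 0.0042, and Acaa2, the mitochondrial thiolase, which ranged from 11.8 to 124, one of 0.022. Control replicate 3 was the highest library for both genes, and for Acaa2 the lowest was again control replicate 2. Without control replicate 2 the log2 fold change of Acaa2 was -0.95.

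The auxiliary enzymes, which move or reduce the double bonds of unsaturated chains so that they can enter the cycle, held 1 of the 2 members without overlap between diets. Eci1 (chr17:24426641-24439348, plus strand), the mitochondrial enoyl-CoA isomerase, had 8.55, 39.2 and 75.8 normalized counts in control replicates 1 to 3 against 104, 117 and 147 in replicates 1 to 3 of the E3–E12 diet. Every E3–E12 diet library was above every control (123 ± 21.8 against 41.2 ± 33.7 SD). The log2 fold change was 1.98 with a standard error of 0.87 and a 95% interval from -0.089 to 4.06 (limma, unadjusted p = 0.058, adjusted p = 0.999). An exact permutation test, two-sided, gave p = 0.1, which is the smallest p that 3 libraries against 3 allow, so no member could reach 0.05 by that test. With each library left out in turn the log2 fold change of Eci1 stayed between 1.14 and 2.64, the lower value without control replicate 1. It remained without overlap in all of the alternatives except after quantile normalization. Eci1 had an unadjusted p under 0.05 with a pseudocount of 10, with equal library totals, with a block for the replicate number and without control replicate 3. In the remaining alternatives its unadjusted p (limma) lay between 0.058 and 0.16, the highest without control replicate 1.

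Eci2, an isomerase that also enters peroxisomes, was more abundant and steadier than Eci1. It had 271, 415 and 468 normalized counts in controls, against 433, 367 and 393 with the E3–E12 diet. The E3–E12 diet libraries lay inside the range of the controls (log2 fold change 0.081, standard error 0.55). Gm15287 and other genes share 9.45% of its windows. Decr1, the mitochondrial dienoyl-CoA reductase, had 89.1, 176 and 179 in controls, against 149, 72.7 and 169 with the E3–E12 diet (log2 fold change -0.20, standard error 0.64). Of the 3 auxiliary enzymes, Eci1 alone had no overlap between the groups.

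Electrons from the dehydrogenases pass through the electron transfer flavoprotein, a dimer of Etfa and Etfb, to its oxidoreductase Etfdh in the inner membrane. Etfdh (chr3:79603788-79629500, minus strand) had 1132, 1269.8 and 1106 normalized counts in controls, against 1201, 1287 and 1213 with the E3–E12 diet. The highest library exceeded the lowest by 1.16-fold, and the means were 1169 ± 88.1 and 1234 ± 46.2 (SD). Its standard deviation of log2 level within groups was 0.084, and 4 of the 18007 genes tested had a lower one, beside a median of 0.85 over the members and 1.07 over all genes. The log2 fold change of Etfdh was 0.079. The limma standard error of 0.52 is larger than its own spread because the test draws each gene toward the spread of all genes. Cpt1a and Eci2 followed as the next steadiest members, at 0.24 and 0.30.

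The flavoprotein subunits varied far more. Etfa had 54.9, 20.5 and 105 normalized counts in controls, against 80.8, 39.0 and 113 with the E3–E12 diet (log2 fold change 0.52, standard error 0.81). Replicate 3 was the highest and replicate 2 the lowest of each group. Etfb had 28.3, 11.7 and 78.9 in controls, against 193, 33.2 and 57.5 with the E3–E12 diet, so E3–E12 diet replicate 1 stood above the others (log2 fold change 1.24, standard error 0.97, or 0.53 without that library). 67.3% of the 50-base windows of the Etfb transcript also occur in Gm45233, an annotated gene that overlaps it on the same strand, so its value is uncertain. The ratio of Etfa to Etfb ran from 1.32 to 1.94 in the controls and from 0.42 to 1.97 in E3–E12 diet mice.

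Peroxisomal oxidation held the most abundant member and the largest log2 fold change. Acox3 (chr5:35583040-35615352, plus strand), an acyl-CoA oxidase for branched chains, had 1537, 3704 and 2906 normalized counts in controls, against 941, 3185 and 3052 with the E3–E12 diet. Replicate 1 was the lowest of each group, and the groups overlapped (log2 fold change -0.28, standard error 0.74). Its median of 259 normalized counts per kilobase of exon was the highest of the 33 members, ahead of Ppard (176), Etfdh (161) and Hsd17b4 (137), although the ranges of these 4 genes over the libraries overlapped. Hsd17b4, the bifunctional enzyme for branched chains, had 384, 667 and 566 in controls, against 152, 525 and 409 with the E3–E12 diet (log2 fold change -0.71, standard error 0.69, or -0.18 without E3–E12 diet replicate 1). Acox3 and Hsd17b4 were thus lowest in the 2 libraries with the least microglial signal, at 115516 and 113250 normalized counts over the markers. The part of cell composition in these levels was not tested.

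Ehhadh (chr16:21761287-21787807, minus strand), the bifunctional enzyme for straight chains and a well-known PPAR alpha target in liver, had 37.9, 1.99 and 56.0 normalized counts in control replicates 1 to 3 against 172, 116 and 57.8 in replicates 1 to 3 of the E3–E12 diet. Every E3–E12 diet library was above every control, but E3–E12 diet replicate 3 exceeded control replicate 3 by only 57.8 against 56.0. The means were 115 ± 57.3 and 32.0 ± 27.5 (SD), with a log2 fold change of 2.50, a standard error of 1.21 and a 95% interval from -0.40 to 5.39 (limma, p = 0.080 before and 0.999 after adjustment, exact permutation p = 0.1). Without control replicate 2, in which many genes were near 0, the log2 fold change was 1.17. After scaling to equal library totals the groups overlapped. Acaa1a, the peroxisomal thiolase, was highest in E3–E12 diet replicate 1, at 1697 normalized counts, and ranged from 196 to 688 in the other 5 libraries, with a log2 fold change of -0.12 although its mean was higher in E3–E12 diet mice (731 against 521). The choroid plexus markers were also highest in E3–E12 diet replicate 1, at 58731 normalized counts, and their part in the level of Acaa1a was not tested. 16.2% of its 50-base windows are shared with other genes, mostly Acaa1b.

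**Figure D4:**
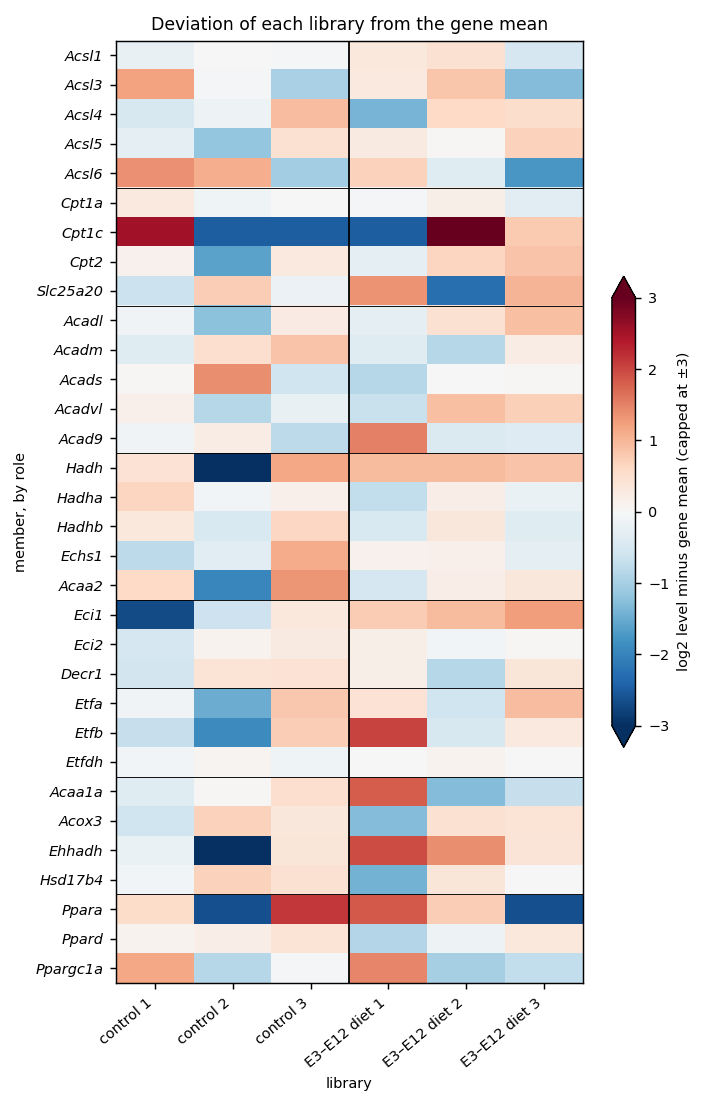
Deviation of each library (x axis) from the mean log2 level of the gene over the 6 libraries for the 32 tested members (y axis, by role); red is above and blue below the gene mean, capped at 3 log2 units. Control replicate 2 holds the deepest blue cells of Hadh, Acaa2, Etfb and Ehhadh, and the row of Etfdh is nearly white.

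Across the 32 tested members, control replicate 2 held the lowest value of 12 (37.5%, beside 38.2% of all genes tested) and the highest value of 3 (9.38%, beside 26.3% of all genes). Ties, as between libraries listed at 0, counted for the first tied library, controls coming before E3–E12 diet mice and lower replicate numbers first. This can raise the share of lowest values in control replicate 2, for the members and for all genes. Control replicate 3 held the highest value of 10 members (31.2%, beside 10.9% of all genes). The 12 with their lowest value in control replicate 2 are Cpt1c and Ppara, listed at 0 there and in other libraries, and Acsl5, Cpt2, Acadl, Acadvl, Hadh, Hadhb, Acaa2, Etfa, Etfb and Ehhadh. Summed over all 33 members, the normalized counts were 12496, 13726 and 14588 in controls, against 11857, 14303 and 13164 with the E3–E12 diet. The pathway thus took between 0.080% and 0.13% of the total of a library, with the lowest share in control replicate 2. Leaving out control replicate 2 gave the members a median log2 fold change of -0.031, with 15 of 32 higher in E3–E12 diet mice.

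**Figure D5:**
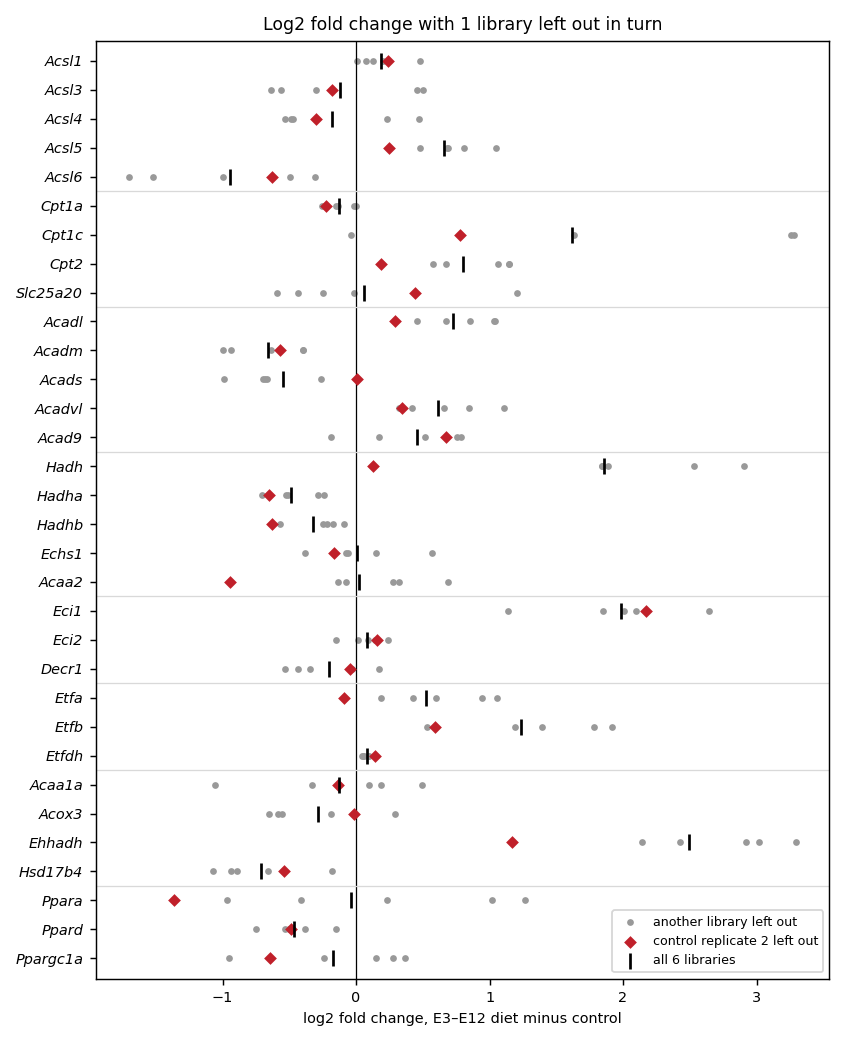
Log2 fold change (x axis, E3–E12 diet minus control) of the 32 tested members with all 6 libraries (black ticks), without control replicate 2 (red diamonds) and without each of the other libraries (grey dots). The red diamonds of Hadh and Ehhadh lie at 0.13 and 1.17, against 1.86 and 2.50 with all libraries, whereas the marks of Etfdh lie between 0.040 and 0.14.

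Around the members, 61 of 63 further genes of the pathway were in the table and 56 were tested, with 24 higher and 32 lower in mean log2 level in E3–E12 diet mice and a median log2 fold change of -0.099. None passed the adjusted threshold (0 genes, limma with Benjamini-Hochberg adjustment, smallest adjusted p = 0.999). Before adjustment, 1 of the 56 lay under 0.05, beside 1.82% of all genes tested, and it is named here for that alone. It was Abcd3, which encodes the main peroxisomal membrane carrier of branched and long acyl chains. It had 108, 151 and 36.6 normalized counts in controls, against 34.0, 11.2 and 9.47 with the E3–E12 diet, so that every E3–E12 diet library was below every control (log2 fold change -2.37, standard error 0.82, limma unadjusted p = 0.024, exact permutation p = 0.1). Among the 14 tested genes of the other peroxisomal list, 8 were higher and 6 lower. Lonp2, a peroxisomal protease, had 674, 4041 and 561 in controls, against 347, 394 and 406 with the E3–E12 diet (log2 fold change -1.59, standard error 0.87). Its highest value was in control replicate 2, and the SD of the controls (1977) exceeded their mean (1758). Lonp2 is in the study's own list of lower genes, drawn from these samples, so its direction is not independent of that choice.

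For uptake and binding of fatty acids, 4 of 8 tested genes were higher and 4 lower. Fabp3, a cytosolic fatty acid binding protein, had 60.0, 42.8 and 28.6 normalized counts in controls, against 67.7, 153 and 65.2 with the E3–E12 diet, again with no overlap (log2 fold change 1.05, standard error 0.64). Slc27a1, a fatty acid transporter, was listed at 0 in control replicate 2 and had a log2 fold change of 1.82 (standard error 1.51.) Of the other synthetases, transferases and dehydrogenases, 5 of 12 were higher. Cpt1b, the muscle form of the outer transferase, had 22.7, 213 and 45.0 in controls, against 18.7, 8.91 and 34.1 with the E3–E12 diet (log2 fold change -1.70, standard error 0.98), and Acss1, which activates acetate in mitochondria, had a log2 fold change of -1.01 (standard error 0.73). Cpt1b was highest in control replicate 2, and the SD of its controls (104) exceeded their mean (93.5).

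Of the partners and corepressors of PPARs, 3 of 12 tested genes were higher and 9 lower. The nuclear receptor Esrra had a log2 fold change of 1.86 (standard error 1.47) and only 3.62 normalized counts in control replicate 2, and the corepressor Nrip1 one of -0.73 (standard error 0.71). Of 10 tested PPAR targets outside beta-oxidation, 4 were higher and 6 lower. Angptl4, a secreted inhibitor of lipoprotein lipase that fasting and PPARs induce, had 62.7, 147 and 49.0 normalized counts in controls, against 359, 158 and 185 with the E3–E12 diet. All 3 E3–E12 diet libraries were above the controls (log2 fold change 1.5, standard error 0.69, limma unadjusted p = 0.068, exact permutation p = 0.1). In all, 6 of the 56 genes had no overlap between diets (2 higher and 4 lower), beside 5.9% of all genes tested. The 6 genes are Fabp3 and Angptl4, which were higher, and Abcd3, Lonp2, Acad10 and Med1, which were lower, the last 2 being named after their values were seen.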

How the data were processed

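Bulk RNA-seq libraries of P15 microglia (3 control, 3 E3–E12 diet) were compared. The authors deposited normalized counts per gene, a scaled signal and not raw counts; the submitters' processing notes name FastQC, STAR, featureCounts, DESeq2 and GRCm38, without versions, and neither the factors nor the adjustment behind the table's label sva is given in the sources used here. RNA was amplified before sequencing. At most 2.09% of the values in a library were whole multiples (tolerance 0.01) of its smallest, so reads could not be recovered, and no depth-based interval is given. Symbols (26507 of 26789 genes), coordinates and exon lengths came from GENCODE M21 (GRCm38) and promoters from RefSeq (GRCm38.p6).

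Genes with a mean of at least 10 were compared on log2(normalized count + 1) with limma 3.58.1 (R 4.3.3, 1 prior variance, two-sided, Benjamini-Hochberg over all genes, threshold 0.1). The code was tried first on simulated data with changes far larger than that of any member, which does not show how smaller changes fare. Exact permutation tests used scipy 1.17.1. Members and lists were chosen with earlier results of these data known. Values in all libraries are given for the PPARs and coactivator, for the 2 largest changes and the highest level of each role group, and for members without overlap, with an unadjusted p under 0.05 or listed at 0. Other pathway genes are named for an unadjusted p under 0.05 or as the 2 smallest p of their list. A gene that this rule names is not reported here. Alternatives were another pseudocount, no filter, 3 other scalings, limma-trend, a replicate block and each library left out.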

Additional observations from a re-analysis of the deposited data

How the results depend on the processing

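Under each of the 13 alternatives 0 members and 0 of all genes passed the adjusted threshold (limma), and the median log2 fold change of the members stayed between -0.031 and 0.19. Members with an unadjusted p under 0.05 (limma) numbered 2 of 32 with a pseudocount of 10, beside 1.72% of all genes. They numbered 1 after quantile normalization, beside 2.73%, and 1 with equal library totals, beside 1.44%. With a library left out they numbered from 0 to 2, beside 1.53% to 3.06% of all genes. The 2 were Eci1 and Ehhadh without control replicate 3, beside 1.96%. Members without overlap numbered 1 after quantile normalization, 1 with equal library totals and from 4 to 8 of 32 with a library left out, beside 6.85%, 5.83% and from 12.6% to 17.8% of all genes in turn; fewer values are then left to overlap. Genes with an unadjusted p under 0.05 numbered 491 of 18007 after quantile normalization, against 327, and from 276 to 551 with a library left out, the most without control replicate 1. Equal library totals moved the median log2 fold change of all genes from 0.087 to 0.20.

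With the replicate number as a block, 1 member (Eci1) had an unadjusted p under 0.05, and 468 genes did. Same-numbered libraries deviated together with correlations of 0.26, 0.035 and 0.14 across genes, and control replicate 2 followed E3–E12 diet replicate 3 (0.087) more than its own number, so the numbers were not taken as pairs.

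With each library left out in turn, the log2 fold change of 15 of the 32 tested members changed sign at least once: Acsl3, Acsl4, Slc25a20, Acads, Acad9, Echs1, Acaa2, Acaa1a and the 7 that follow. For these 7, log2 fold changes ran from -0.041 to 3.28 for Cpt1c, -0.15 to 0.24 for Eci2, -0.53 to 0.17 for Decr1, -0.092 to 1.06 for Etfa, -0.65 to 0.29 for Acox3, -1.36 to 1.27 for Ppara and -0.95 to 0.36 for Ppargc1a, and Ppara was at 0.0085 with equal totals. Causes were not tested. With 3 libraries a group and unknown depth, small differences in single genes were not detectable.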
